A study of Mus musculus with 12 samples.

Results

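The genes of type I interferon signalling examined here were Ifnar1, Ifnar2, Jak1, Tyk2, Stat2, Irf9, Usp18, Socs1 and Socs3. They were taken by gene symbol, and all 9 were listed in both count tables, among 17544 genes for unstimulated cells and 17874 genes after LPS. J774A.1 is a mouse macrophage line. WT cells had received a Cas9 vector without a guide and ACAT1 KO cells the same vector with a guide to the fourth exon of Acat1, which encodes a mitochondrial acetyl-CoA acetyltransferase, and the lines of both genotypes were expanded from sorted cells. RNA was sequenced from 3 WT and 3 ACAT1 KO replicates without stimulation, and from 3 of each after 2 h with 100 ng/ml of LPS, a bacterial ligand of the receptor TLR4. The paper describes the unstimulated replicates as different lines, and the labels do not say how any replicate was cultured. Lines can differ for reasons other than the edit, and where replicates are separate lines that spread is part of the error used here.

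Type I interferons bind a receptor of 2 chains, IFNAR1 and IFNAR2, which carry the kinases TYK2 and JAK1. The kinases activate ISGF3, a transcription factor complex that holds STAT2 and IRF9 and binds interferon-stimulated response elements (ISREs). Feedback comes from USP18, which binds IFNAR2 and also strips ISG15 from proteins, and from SOCS1 and SOCS3, which block JAK kinases and of which SOCS3 acts mostly on receptors that use gp130. In macrophages LPS induces interferon-β through TLR4, and the secreted interferon then acts on the same cells.

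Libraries held 56948593 to 167280149 counts, and levels are given in CPM, counts scaled by library size, on a single TMM scale over the 12 libraries unless stated. Acat1 lay at 80.8 to 108 CPM in unstimulated WT and 25.5 to 28.9 CPM in unstimulated ACAT1 KO libraries. After LPS it lay at 65.0 to 95.4 and 18.5 to 19.9 CPM, so the labels of genotype held in all 12 libraries. All 10 macrophage markers examined were listed in both states. None of 4 epithelial and 1 of 6 T-cell markers was listed, the last at up to 0.207 CPM, and the defining marker Cd3e was not. The listed dendritic-cell (2 of 4) and neutrophil markers (1 of 4, and 2 after LPS) summed to at most 5.98 and 5.74 CPM. Fibroblast markers, of which Col1a2 was not listed and Pdgfra made up nearly all of the sum, summed to 4.95 to 5.98 CPM in WT and 10.3 to 12.2 CPM in ACAT1 KO libraries after LPS, and their part in the genotype results was not tested. In 3 unstimulated libraries, WT replicates 1 and 2 and ACAT1 KO replicate 2, noncoding genes that sit opposite exons of another gene took 0.0450 to 0.0685% of counts, and in the other 9 libraries they took up to 0.0158%. Of the exon bases of Tyk2 and Usp18, 8.07% and 4.44% lie under the antisense gene 1700084C06Rik and the lincRNA Gm44148. The split reached other genes too. Over 11961 genes, deviations from group means of unstimulated WT and ACAT1 KO libraries correlated from 0.583 to 0.745 within a set. Across sets they correlated from -0.862 to -0.412. What else differs between the sets, which hold unequal numbers of each genotype, was not tested. Genotype values in unstimulated cells are also given within each set where any of the 9 genes was called.

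The first question was whether loss of ACAT1 changed the expression of these genes in resting cells. Stat2 and Usp18 fell in unstimulated ACAT1 KO cells, to 0.451 and 0.296 of the WT level, and neither receptor chain nor either kinase passed the test. With edgeR's quasi-likelihood test and Benjamini-Hochberg adjustment over all genes, 2 of the 9 genes passed an adjusted p of 0.05, both lower, where 1.91% of the 16440 genes tested passed in either direction and 1.17% passed as lower. At an unadjusted p under 0.05, 3 of the 9 passed, all lower, against 9.93% of all genes. In 4 of the 9 the libraries of the genotypes did not overlap, with ACAT1 KO lower, against 12.7% of all genes. The median log2 fold change of the 9 was -0.084, and that of all genes 0.0035. After LPS only Ifnar1 passed, to 0.826 of the WT level, where 9.12% of the 16483 genes tested passed as lower and 15.1% in either direction. It was also the only one of the 9 whose libraries did not overlap between genotypes, against 19.7% of all genes as lower. At an unadjusted p under 0.05 it was again the only one, against 31.3% of all genes. A lower level in these bulk libraries cannot tell fewer expressing cells from less RNA per cell.

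**Figure D1:**
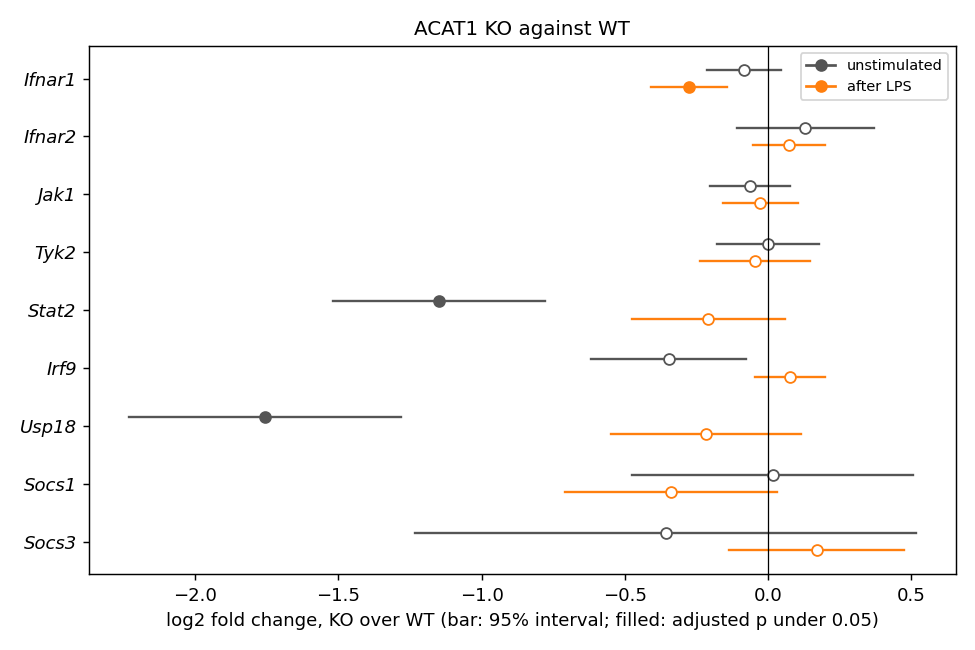
Log2 fold change of ACAT1 KO over WT for each gene, without stimulation (grey) and after LPS (orange), with 95% intervals from edgeR and filled points for an adjusted p under 0.05. Usp18 at -1.76 and Stat2 at -1.15 stand away from 0 in unstimulated cells, and after LPS the only filled point is Ifnar1 at -0.28.

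Ifnar1 encodes the receptor chain that carries TYK2, and spans 91485238 to 91507441 of chromosome 16 in GRCm38, plus strand. Unstimulated WT libraries held 85.0, 82.3 and 80.2 CPM and unstimulated ACAT1 KO libraries 80.2, 76.0 and 75.7 CPM, so the lowest WT and the highest ACAT1 KO library were almost level. The log2 fold change there was -0.084 (95% interval -0.21 to 0.044, adjusted p = 0.450). After LPS the WT libraries held 103, 99.4 and 94.4 CPM and the ACAT1 KO libraries 76.9, 82.4 and 82.1 CPM, and the groups lay well apart. Ifnar1 fell by 0.28 on the log2 scale in ACAT1 KO cells after LPS (standard error 0.0575, adjusted p = 0.0197, edgeR). The change is small in size, and the call was lost when WT replicate 2 or any of the ACAT1 KO replicates 1, 2 and 3 was left out, with adjusted p from 0.0585 to 0.0725, while the log2 fold change stayed between -0.30 and -0.24.

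Ifnar2, the chain that carries JAK1 and binds interferon tightly, lies near Ifnar1 on chromosome 16, from 91372783 to 91405589 on the same strand. It held 78.3, 88.0 and 103 CPM in unstimulated WT and 100, 97.3 and 95.2 CPM in unstimulated ACAT1 KO libraries. After LPS it held 97.1, 96.2 and 90.2 CPM in WT and 95.4, 102 and 96.8 CPM in ACAT1 KO libraries. The groups overlapped in both states, with log2 fold changes of ACAT1 KO over WT of 0.13 (95% interval -0.11 to 0.37) and 0.073 (95% interval -0.051 to 0.20). Reads per length of the 2 chains were set side by side within each library. The ratio of Ifnar1 to Ifnar2 in RPKM was 0.586 ± 0.00687 (SD, n = 3) in WT and 0.460 ± 0.0131 (SD, n = 3) in ACAT1 KO cells after LPS. These libraries did not overlap, and the two-sided exact permutation test gave p = 0.100, the smallest that 3 against 3 libraries allow, or 0.25 after adjustment over the 10 ratios compared. Without stimulation the ratios overlapped, at 0.523 ± 0.0853 (SD, n = 3) and 0.444 ± 0.00540 (SD, n = 3).

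The kinases differed little between genotypes. Jak1, on chromosome 4 from 101152367 to 101265282 on the minus strand, held 139, 135 and 133 CPM in unstimulated WT and 134, 130 and 123 CPM in unstimulated ACAT1 KO libraries. After LPS the WT libraries held 217, 195 and 200 CPM and the ACAT1 KO libraries 201, 200 and 191 CPM. The 95% intervals of the genotype log2 fold change ran from -0.20 to 0.078 without stimulation and from -0.16 to 0.10 after LPS. Tyk2, on chromosome 9 from 21104068 to 21131243 on the minus strand, held 64.2, 62.8 and 57.5 CPM in unstimulated WT and 56.5, 64.1 and 62.7 CPM in unstimulated ACAT1 KO libraries. After LPS it held 77.3, 89.9 and 91.0 CPM in WT and 75.9, 88.6 and 82.2 CPM in ACAT1 KO libraries. Its intervals ran from -0.18 to 0.18 and from -0.24 to 0.15. The groups of both kinases overlapped in both states.

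**Figure D2:**
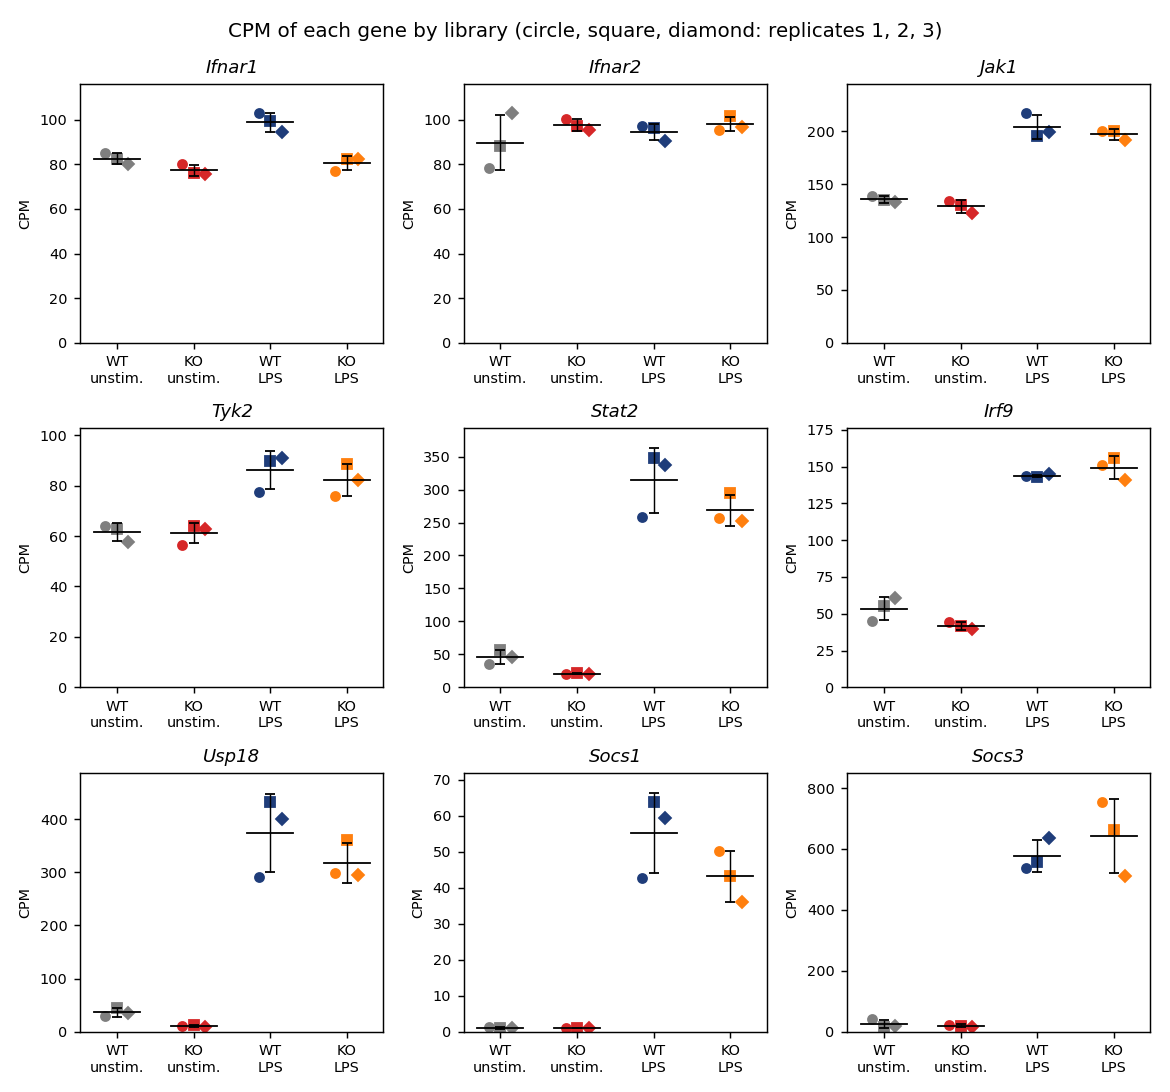
CPM of each gene in each of the 12 libraries, by group, with the mean (line) and SD (bar) of 3 libraries and a linear axis from 0. Unstimulated ACAT1 KO libraries of Usp18 (8.83 to 12.7 CPM) and Stat2 (19.6 to 21.4 CPM) lie below all WT ones (28.8 to 45.6 and 35.6 to 55.9 CPM), and after LPS the genotypes of both genes overlap.

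Stat2 encodes the STAT of ISGF3 that is found in no other common STAT complex, and lies on chromosome 10 from 128270559 to 128292849 on the plus strand. RefSeq (GRCm38.p6) held windows from 250 bases before to 50 bases after the annotated start for 8 of the 9 genes, and none for Usp18. They were searched on both strands for an ISRE core, a pair of TTTC half-sites (GAAA on the other strand) with any 2 bases between them, and for the gamma-activated sequence TTCNNNGAA, which STAT dimers bind. The ISRE letters stood in 3.44% of all 32851 windows and the gamma-activated sequence in 8.30%. Of the windows of these genes, that of Stat2 held an ISRE match and that of Socs1 held a pair of them, overlapping each other by 4 bases. The 250 bases before the start of both are shown because they carry these matches, in capitals, from chr10:128270248-128270497 on the plus strand for Stat2 and chr16:10785537-10785786 on the minus strand for Socs1.
Stat2: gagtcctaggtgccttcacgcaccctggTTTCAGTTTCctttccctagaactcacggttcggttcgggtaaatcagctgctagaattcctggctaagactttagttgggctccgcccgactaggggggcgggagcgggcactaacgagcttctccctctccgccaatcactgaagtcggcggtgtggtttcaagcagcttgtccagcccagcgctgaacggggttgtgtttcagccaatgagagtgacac
Socs1: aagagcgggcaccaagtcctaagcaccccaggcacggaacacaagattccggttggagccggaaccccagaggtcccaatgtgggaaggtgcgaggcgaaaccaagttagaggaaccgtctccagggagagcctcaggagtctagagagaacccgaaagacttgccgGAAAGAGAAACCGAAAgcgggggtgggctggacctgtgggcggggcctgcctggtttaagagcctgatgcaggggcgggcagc
The Stat2 match began 222 bases before the start, and the Socs1 matches 83 and 77 bases before it. A gamma-activated sequence stood in the windows of Ifnar1, Ifnar2 and Socs3, shown in capitals with 10 bases on each side, beginning 5, 214 and 154 bases before the start.
Ifnar1: ggcgggggcgTTCACGGAAggggcggggc
Ifnar2: tgccaaggccTTCCTGGAAgaagagagta
Socs3: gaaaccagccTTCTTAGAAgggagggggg
Windows of Jak1, Tyk2 and Irf9 held neither set of letters. A match describes the letters only and is no measure of binding. The starts are those of RefSeq and can differ from the ends of the gene spans given here. The Socs3 window, from 117969317 to 117969616, lies within the span given below for Socs3.

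In unstimulated cells Stat2 held 35.6, 55.9 and 45.7 CPM in WT and 20.4, 21.4 and 19.6 CPM in ACAT1 KO libraries. The ACAT1 KO libraries lay close together, and the lowest WT library was well above all of them. Stat2 fell by 1.15 on the log2 scale (95% interval -1.52 to -0.78, adjusted p = 0.0344, edgeR), and within the libraries with more and fewer other-strand counts the differences were -1.04 and -1.19. The call was lost on leaving out WT replicate 2 (adjusted p = 0.0814) or ACAT1 KO replicate 1, 2 or 3 (0.105, 0.0953 and 0.140), with log2 fold changes from -1.18 to -0.98 in those fits. After LPS Stat2 held 258, 348 and 337 CPM in WT and 257, 294 and 253 CPM in ACAT1 KO libraries. These overlapped, with a log2 fold change of -0.21 (95% interval -0.47 to 0.058, adjusted p = 0.262). Without WT replicate 1, the lowest WT library after LPS, it was -0.33 with an adjusted p of 0.0270. Of the 6 fits that left out a library, this alone called Stat2.

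Irf9, the DNA-binding part of ISGF3, lies on chromosome 14 from 55603571 to 55610030 on the plus strand, and shares 2.28% of its exon bases with Rnf31 on the same strand. Unstimulated libraries held 44.9, 55.4 and 60.4 CPM in WT and 44.7, 41.4 and 39.6 CPM in ACAT1 KO cells. WT replicate 1 and ACAT1 KO replicate 1 were almost level, and the other WT libraries lay above them. The log2 fold change was -0.35 (95% interval -0.62 to -0.076), with an unadjusted p of 0.0193 and an adjusted p of 0.168 by edgeR, so the call was not made. With all 12 libraries in a single fit, and by DESeq2, the adjusted p was 0.0399 and 0.0413. After LPS the libraries held 143, 143 and 145 CPM in WT and 151, 156 and 141 CPM in ACAT1 KO cells, and the log2 fold change was 0.076 (95% interval -0.046 to 0.20). Without stimulation the ratio of Irf9 to Stat2 in RPKM was 1.31 ± 0.194 (SD, n = 3) in WT and 2.25 ± 0.147 (SD, n = 3) in ACAT1 KO libraries without overlap (exact permutation p = 0.100, adjusted 0.25), and after LPS it was 0.512 ± 0.0873 and 0.614 ± 0.0318 (SD, n = 3) with overlap.

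Usp18 lies on chromosome 6 from 121245906 to 121270917 on the plus strand. Unstimulated WT libraries held 28.8, 45.6 and 34.7 CPM and unstimulated ACAT1 KO libraries 10.5, 12.7 and 8.83 CPM. The groups lay far apart, and the lowest WT library stood well above the highest ACAT1 KO library. Usp18 fell by 1.76 on the log2 scale (95% interval -2.23 to -1.28, adjusted p = 0.0215, edgeR), and the differences within the libraries with more and fewer other-strand counts were -1.49 and -1.84. The call was lost on leaving out WT replicate 1 or 2 (adjusted p = 0.0538 and 0.0707) or ACAT1 KO replicate 1 or 3 (0.0827 and 0.0902), with log2 fold changes from -1.91 to -1.56. After LPS Usp18 held 291, 431 and 401 CPM in WT and 298, 361 and 294 CPM in ACAT1 KO libraries. The groups overlapped, with a log2 fold change of -0.22 (95% interval -0.55 to 0.11, adjusted p = 0.347), and of -0.37 with an adjusted p of 0.0402 without WT replicate 1. That fit alone, of 6 that left out a library, called Usp18 after LPS.

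The SOCS genes did not pass in either state. Socs1, on chromosome 16 from 10782240 to 10785536 on the minus strand, was low in resting cells, with 61 to 149 counts per library. It held 1.36, 0.931 and 0.979 CPM in WT and 1.08, 1.16 and 1.04 CPM in ACAT1 KO libraries. After LPS it held 42.7, 63.7 and 59.3 CPM in WT and 50.2, 43.2 and 36.2 CPM in ACAT1 KO libraries. These overlapped through WT replicate 1, with a log2 fold change of -0.34 (95% interval -0.71 to 0.033, adjusted p = 0.196), and of -0.49 with an adjusted p of 0.0340 without that library. No other of the 6 fits that left out a library called Socs1. Socs3, on chromosome 11 from 117966079 to 117970047 on the minus strand, held 40.6, 14.9 and 20.05 CPM in unstimulated WT and 23.8, 19.9 and 14.96 CPM in unstimulated ACAT1 KO libraries. WT replicate 1 stood highest, and without it the sign of the log2 fold change turned from -0.36 (95% interval -1.23 to 0.52) to 0.16. After LPS it held 538, 559 and 637 CPM in WT and 753, 661 and 511 CPM in ACAT1 KO libraries, with overlap and a log2 fold change of 0.17 (95% interval -0.13 to 0.48). The ratio of Socs1 to Socs3 in RPKM after LPS was 0.0950 ± 0.0173 (SD, n = 3) in WT and 0.0671 ± 0.00281 (SD, n = 3) in ACAT1 KO libraries without overlap (exact permutation p = 0.100, adjusted 0.25).

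The next question was how each genotype responded to LPS. All 9 genes were compared between states in a single fit over 16535 genes. In WT cells 8 of 9 rose, against 29.3% of all genes called higher, and in ACAT1 KO cells 7 of 9 rose, against 29.5%. The feedback genes rose most. Socs1 rose 51.0-fold in WT (95% interval 37.4 to 69.6) and 39.5-fold in ACAT1 KO cells (29.2 to 53.3). Socs3 rose 23.0-fold (13.6 to 38.7) and 32.9-fold (19.3 to 56.0). Usp18 rose 10.3-fold (7.56 to 14.1) and 29.8-fold (21.3 to 41.6). The parts of ISGF3 came next, with Stat2 up 6.87-fold (5.40 to 8.75) in WT and 13.1-fold (10.2 to 16.8) in ACAT1 KO cells, and Irf9 up 2.68-fold (2.32 to 3.10) and 3.56-fold (3.08 to 4.12). The kinases rose less. Jak1 rose by 0.59 in WT and 0.61 in ACAT1 KO cells on the log2 scale, and Tyk2 by 0.49 and 0.43. The receptor chains moved least, and their direction depends on the scaling. Ifnar1 rose by 0.26 on the log2 scale in WT (95% interval 0.14 to 0.38) and its log2 fold change was 0.058 in ACAT1 KO cells (-0.060 to 0.18), while under upper-quartile normalization the values were 0.052 (adjusted p = 0.414, edgeR) and -0.092. Ifnar2 had log2 fold changes of 0.075 in WT and 0.0063 in ACAT1 KO cells, neither called, and -0.13 and -0.14 under that normalization, which moved the median of all genes from -0.018 to -0.23 in WT and from -0.026 to -0.17 in ACAT1 KO cells. Over all genes 4850 rose and 4638 fell in WT and 4871 and 5166 in ACAT1 KO cells, which became 3628 and 6681, and 3921 and 6560, with that normalization.

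**Figure D3:**
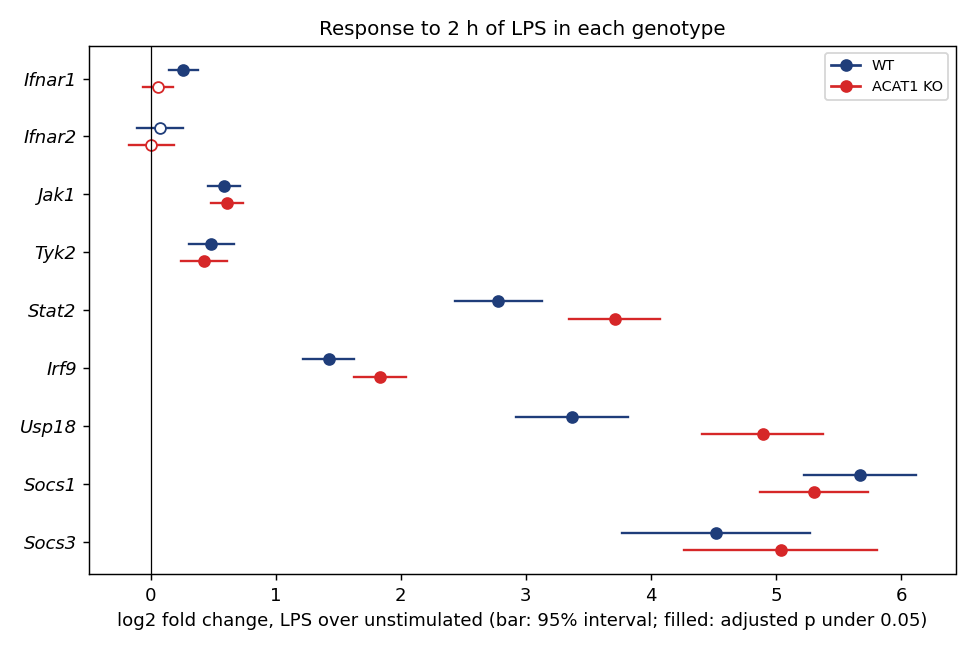
Log2 fold change of LPS over unstimulated cells for each gene in WT (blue) and ACAT1 KO cells (red), with 95% intervals from edgeR and filled points for an adjusted p under 0.05. Socs1 lies farthest right at 5.67 and 5.30, the intervals of Stat2 and Usp18 do not overlap between genotypes, and Ifnar1 and Ifnar2 lie near 0, where upper-quartile normalization turns the sign of Ifnar2 in both genotypes and of Ifnar1 in ACAT1 KO cells.

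Whether the genotypes differed in this response was tested as an interaction, which uses the same 12 libraries as the comparisons above. The fold change of Usp18 with LPS was 2.89 times as large in ACAT1 KO as in WT cells, an interaction of 1.53 on the log2 scale (95% interval 0.94 to 2.12, adjusted p = 0.0533, edgeR). For Stat2 the interaction was 0.93 (95% interval 0.47 to 1.39, adjusted p = 0.115). Both genes started lower in ACAT1 KO cells and did not end higher. Mean Usp18 went from 36.3 to 374 CPM in WT and from 10.7 to 318 CPM in ACAT1 KO cells. Mean Stat2 went from 45.7 to 314 CPM in WT and from 20.5 to 268 CPM in ACAT1 KO cells. None of the 9 passed, where 0.187% of genes did, 8 higher and 23 lower (10 and 13 under upper-quartile normalization), and 4 of the 9 had an unadjusted p under 0.05 where 8.92% of genes did. Without unstimulated WT replicate 1 the values were 1.71 for Usp18 (adjusted p = 0.0450) and 1.12 for Stat2 (adjusted p = 0.0479), and both were called. Of the 12 fits that left out a library, this alone called either gene. Over those 12 fits the interaction ran from 1.34 to 1.71 for Usp18 and from 0.76 to 1.12 for Stat2. DESeq2 called Usp18 and Stat2 on all libraries, with adjusted p of 3.36e-06 and 0.00181, but it called 333 of all genes where edgeR called 31. Each line was also taken as a block, which pairs the states by replicate number. The labels do not state this pairing. It was drawn from correlations in these same libraries, so the block is no independent test. For unstimulated ACAT1 KO replicate 2 the correlation was 0.139 with LPS replicate 2 and 0.0976 with LPS replicate 3. With the block the interactions were 1.53 for Usp18 (adjusted p = 0.00118, edgeR) and 0.92 for Stat2 (adjusted p = 0.00421), and 1.74% of genes passed. Both were called with that block when any of the 6 lines was left out, with adjusted p from 0.00168 to 0.00977 for Usp18 and from 0.00566 to 0.0263 for Stat2. Irf9 had an interaction of 0.41 (unadjusted p = 0.00921, adjusted p = 0.298) and Ifnar1 of -0.20 (unadjusted p = 0.0204, adjusted p = 0.405), neither called with or without the block, although under the block Irf9 was called without WT line 1 (0.52, adjusted p = 0.0263). Intervals of the other 5 included 0, and that of Socs3, from -0.41 to 1.44, was the widest.

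Levels of different genes were compared only per exon length, as RPKM. In unstimulated WT cells Ifnar2 stood highest at 26.9 ± 3.70 RPKM (SD, n = 3), followed by Jak1 at 18.8 ± 0.429 and Ifnar1 at 13.9 ± 0.402 (SD, n = 3). Usp18, Irf9, Tyk2, Socs3 and Stat2 then ran from 13.0 down to 7.72 RPKM, each with libraries that overlapped those of its neighbour. Socs1 was lowest at 0.375 ± 0.0805 RPKM (SD, n = 3). In unstimulated ACAT1 KO cells Ifnar2, Jak1 and Ifnar1 led in the same order, at 29.3, 17.9 and 13.0 RPKM, while Usp18 at 3.83 ± 0.694 and Stat2 at 3.46 ± 0.152 RPKM (SD, n = 3) stood next to last before Socs1 and overlapped each other. After LPS the order was led in both genotypes by Socs3, Usp18 and Stat2 without overlap between neighbours, at 199.9, 134.2 and 53.0 RPKM in WT and 222.0, 113.8 and 45.3 RPKM in ACAT1 KO cells. Ifnar2, Jak1 and Irf9 followed between 26.7 and 29.4 RPKM in both genotypes. Their closeness depends on the length used. With the longest transcript, WT and ACAT1 KO cells held 41.6 and 40.2 RPKM of Jak1, 37.1 and 38.6 of Irf9, and 31.0 and 32.2 of Ifnar2. Tyk2 was lowest, at 12.5 ± 1.10 and 11.98 ± 0.923 RPKM (SD, n = 3), although with the length of the longest transcript Socs1 took that place in ACAT1 KO cells. Transcripts of the receptor chain Ifnar2 thus stood above Usp18 in resting cells and below it after LPS, and the ratio of Usp18 to Ifnar2 in RPKM went from 0.486 in WT and 0.131 in ACAT1 KO cells to 4.74 and 3.86.

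**Figure D4:**
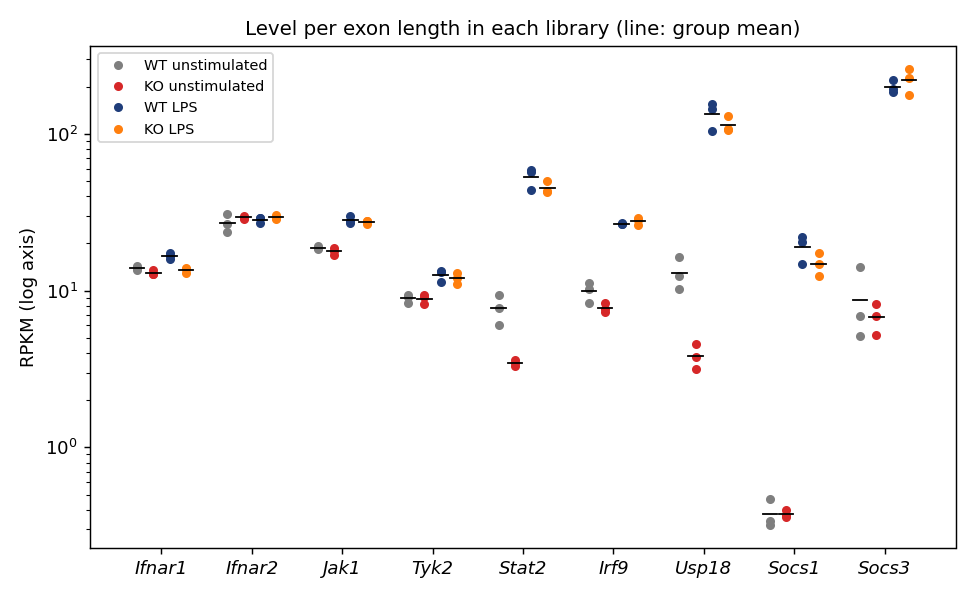
RPKM of each gene in each library on a log axis, by group, with a line at the mean of 3 libraries. Socs1 moves from 0.375 to 19.0 RPKM in WT cells, and Socs3, Usp18 and Stat2 go from the middle or lower end of the resting order to its top after LPS.

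Other genes of the pathway were taken from lists by role. Of 17 type I interferon genes none was listed in unstimulated cells and 4 were listed after LPS. Ifnb1, which encodes interferon-β, held 21.9, 33.4 and 49.2 CPM in WT and 110.8, 84.3 and 57.5 CPM in ACAT1 KO libraries after LPS, on the scale of those 6 libraries. Every ACAT1 KO library lay above every WT library, and Ifnb1 rose by 1.27 on the log2 scale in ACAT1 KO cells (95% interval 0.56 to 1.98, adjusted p = 0.0312, edgeR). That call was lost without WT replicate 2 or ACAT1 KO replicate 1 or 2, with adjusted p from 0.0859 to 0.0942. These are RNA levels at 2 h of LPS. The paper measured secreted interferon-β protein by ELISA after a longer time with LPS and reported less of it from ACAT1 KO cells. Ifnar1 RNA was lower in the same ACAT1 KO libraries, and a link between these RNA changes was not tested. Ifna4 and Ifna5, also tested, did not pass and were at most 1.52 CPM, and Ifna1 had at most 24 counts.

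Among the lists, the 15 targets of ISGF3 differed most in resting cells. This list was chosen with earlier results of these data known, so its counts are a description and no independent test. Cmpk2 and Mx2 passed as lower in unstimulated ACAT1 KO cells, at 16.4 ± 2.58 against 5.78 ± 1.56 CPM and 9.89 ± 1.65 against 3.91 ± 1.02 CPM (SD, n = 3). Cmpk2, a mitochondrial nucleotide kinase, fell by 1.49 (adjusted p = 0.0390, edgeR) and Mx2, an antiviral GTPase, by 1.33 (adjusted p = 0.0465), and these calls were kept in 1 and 0 of the 6 fits that left out a library. At an unadjusted p under 0.05, 13 of the 15 were lower, against 9.93% of all genes, and the median log2 fold change was -0.94 against 0.0035 for all genes. Among those not called were Ifi44 at -1.05 (adjusted p = 0.0515, edgeR) and Rtp4 at -1.57 (adjusted p = 0.0684). After LPS none of the 15 passed, by an adjusted or an unadjusted p in edgeR, and the median was 0.020. All 15 rose with LPS in both genotypes, with median log2 fold changes of 4.99 in WT and 5.92 in ACAT1 KO cells. The interactions of the 15 had a median of 1.06 against -0.038 for all genes, with none called without the line block and 11 positive at an unadjusted p under 0.05, against 3.28% of all genes.

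**Figure D5:**
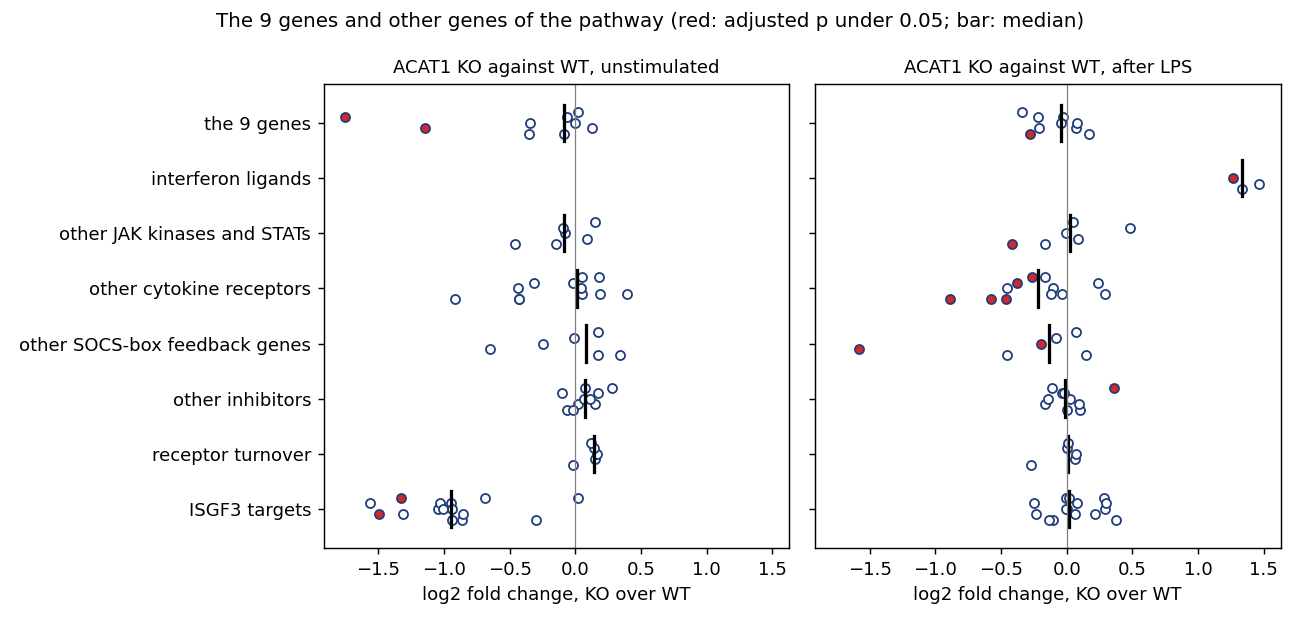
Log2 fold change of ACAT1 KO over WT for the 9 genes and each tested gene of the lists by role, without stimulation (left) and after LPS (right), with red points for an adjusted p under 0.05 and a bar at the median of each list. ISGF3 targets have a median of -0.94 in unstimulated cells and 0.020 after LPS, and interferon ligands appear only after LPS.

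Of 6 other JAK and STAT genes tested, 1 passed after LPS, where 15.1% of all genes passed in either direction. Stat6, which acts downstream of interleukin-4, held 217.5 ± 15.8 CPM in WT and 160.1 ± 10.1 CPM in ACAT1 KO cells after LPS (SD, n = 3) and fell by 0.42 on the log2 scale (adjusted p = 0.0101, edgeR), in all 6 fits that left out a library. In unstimulated cells its log2 fold change was -0.46 (adjusted p = 0.0544). The other 5 tested did not pass in either state. Among them Stat5a went the other way from Stat6 after LPS, at 0.48 (unadjusted p = 0.0245, adjusted p = 0.103, edgeR), with libraries that did not overlap. With the replicate number as a block its adjusted p was 0.0305, but these numbers do not pair WT with ACAT1 KO lines, so no call was taken from that fit. Jak2 was at -0.17 after LPS (adjusted p = 0.251, edgeR). Of 12 other cytokine receptor genes tested, 5 passed as lower after LPS, against 9.12% of all genes, and none passed in unstimulated cells. They were Il12rb1 at -0.89 (adjusted p = 0.0161, edgeR), Il6st at -0.46 (adjusted p = 0.0218), Il6ra at -0.27 (adjusted p = 0.0345), Il4ra at -0.38 (adjusted p = 0.0386) and Csf2rb at -0.57 (adjusted p = 0.0498), the last named after its value was seen. Il6st encodes gp130 and Il6ra the chain that binds interleukin-6, and Il12rb1 was under 1 CPM in all LPS libraries. Each of the 5 lost its call in 2 to 5 of the 6 fits that left out a library. With the replicate number as a block Il6ra and Csf2rb were not called (adjusted p = 0.0664 and 0.0878, edgeR), and Il12rb1, Il6st and Il4ra were.

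Among 6 other SOCS-box genes Socs2 and Socs4 passed as lower after LPS, against 9.12% of all genes. Socs2 fell by 1.58 (adjusted p = 0.00659, edgeR) from a low level of 0.666 ± 0.0822 to 0.219 ± 0.0601 CPM (SD, n = 3). Socs4 fell by 0.19 (adjusted p = 0.0498), a call that no fit without a library kept. Cish, a target of STAT5, rose most of these with LPS, by 6.45 in WT and 5.67 in ACAT1 KO cells on the log2 scale. Its interaction was -0.78 (adjusted p = 0.516, edgeR), and -0.80 with the line block (adjusted p = 0.0414). For Il6ra the interaction was -0.46 in both fits (adjusted p = 0.0910, and 0.0276 with the block). Under that block, a pairing taken from these same data, both were called with a lower response in ACAT1 KO cells. Of 10 other inhibitors tested, Ptpn1, a phosphatase that acts on JAK2 and TYK2, passed as higher after LPS, where 5.93% of all genes did, at 96.1 ± 2.58 against 121.9 ± 8.81 CPM (SD, n = 3), a log2 fold change of 0.36 (adjusted p = 0.0117, edgeR) that was called in all 6 fits without a library. Without stimulation it was 0.28 (adjusted p = 0.0514). None of the 5 genes of receptor turnover passed between genotypes in either state.

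Finally, genes with a symbol and a mean of at least 1 CPM were ranked by the correlation of their log2 CPM with each of the 9 genes over the 12 libraries, after the mean of each state was subtracted. The 12 points share lines and genotypes, and r is given as a description. Stat2 and Usp18 were each other's closest gene (r = 0.986). Ifi204, a DNA sensor of the Ifi200 family, and Oas3, an oligoadenylate synthetase, were the next for both, at r from 0.974 to 0.986. Irf9 was closest to Slfn2 (r = 0.970) and Xaf1 (r = 0.944), of which Xaf1 is also an ISGF3 target on the list above. Ifnar1 was closest to Shtn1 (r = 0.972) and Ifnar2 to Gnaq (r = 0.926). Socs3 was closest to the stress-induced transcription factor gene Atf3 (r = 0.892), Socs1 to Dusp19 (r = 0.967), Tyk2 to Ap2a1 (r = 0.958) and Jak1 to Gm12715 (r = 0.920). None of the 3 closest genes of Ifnar1, Ifnar2, Jak1, Tyk2, Socs1 or Socs3 was another of the 9.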

How the data were processed

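RNA-seq of 12 libraries, 3 in each of 4 groups, was analysed, grouped by the genotype, treatment and number in the labels. The authors sequenced strand-marked libraries, used Trimmomatic 0.33 for trimming, HISAT2 for alignment to GRCm38 and StringTie for quantification, and deposited a table per state of raw gene counts in whole numbers. The step that gave whole counts and its use of strand are not given in the sources used here. The tables also hold the authors' log2 values in 12 per-sample columns and the statistics of their own comparisons, none of which was used. Repeated entries (59 and 57, with identical counts) were removed. Listed genes all reach 4 counts in 5 or more of the 6 libraries of a state, so silent genes may be unlisted. The chi-square of library pairs within a group, divided by its degrees of freedom, was 34.1 to 287, so no pair agreed within sampling noise.

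The counts were tested in R 4.3.3 by edgeR 4.0.16, using TMM and filterByExpr. Genotypes were compared by the quasi-likelihood test, two-sided, within the 6 libraries of a state. LPS and the interaction were fitted on all 12 libraries over the genes of both tables. A call is a Benjamini-Hochberg adjusted p under 0.05 over all genes tested. Standard errors are the log2 fold change over the square root of F, and intervals are 95%. RPKM is CPM per kilobase of exon union in GENCODE for GRCm38. Depth makes the spread between libraries the limit on precision. The labels do not say how the replicates were cultured, so p-values measure the spread between these samples. The tests were checked on simulated counts with 200 changed genes in each comparison. Of these, 146 were called between unstimulated genotypes, 187 between genotypes after LPS, 164 for LPS in WT and 147 for the interaction. Unchanged genes made up 5.81%, 13.0%, 1.80% and 4.55% of the calls. For genotypes after LPS this share was well above the threshold of 0.05, so calls there may hold more false ones than the adjusted p states.

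Deviations from group means of unstimulated and LPS libraries of the same number and genotype correlated from 0.139 to 0.454 in all 6 pairs, over 11961 genes, against -0.344 to 0.0976 for different numbers. Lines were therefore taken as a block in an alternative fit, a pairing that comes from the data and not the labels. Alternatives were DESeq2 1.42.0, normalization by relative log expression or upper quartile, no filter, other sets of libraries, blocks, a term for other-strand counts, and leaving out each library. Leaving out lines under the block, and the alternatives for genes other than the 9, were added after the data were seen. The 9 genes and the lists were chosen with earlier results of these data known. Named genes are the 9, Acat1, at most 4 genes of each list with the smallest p in the comparison described, and up to 3 genes most like each of the 9. Csf2rb was named beyond that limit after its value was seen. Of the paper's other assays none was analysed here, and a list of markers of another cell type is not reported here.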

Additional observations from a re-analysis of the deposited data

Results flagged for a closer look

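The fold change with LPS of Usp18 and Stat2 differed between the genotypes in the fit with the line as a block, a pairing taken from these same data. The interaction of genotype and LPS was 1.53 on the log2 scale for Usp18 (adjusted p = 0.00118, edgeR) and 0.92 for Stat2 (adjusted p = 0.00421). Both fold changes were larger in ACAT1 KO cells, which started from lower unstimulated levels. Without the block neither passed, with adjusted p of 0.0533 and 0.115. Groups of 3 libraries are too small for the test of single outlying samples.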

How the results depend on the processing

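Of 648 refits of the 45 log2 fold changes of the 9 genes, 580 kept direction and call, 13 lost the call, 25 gained it and 30 changed sign, all 30 in genes not called. In unstimulated cells the genes called numbered 314, and 1721 with DESeq2, 1353 with all 12 libraries in a single fit, 664 with a term for other-strand counts, and 151 with the replicate number as a block. Without 1 library they ranged from 7 (WT replicate 2) to 522 (WT replicate 3), and the called among the 9 from 0 to 2. After LPS, without 1 library, they ranged from 867 to 2245 and from 0 to 4. For the interaction 31 genes became 333 with DESeq2 and 288 with the line block, each with 2 of the 9 called. Without 1 library and with no block, 2 to 41 genes and 0 to 2 of the 9 were called, and under the line block without 1 line, 73 to 326 and 2 to 3. The number of the WT and ACAT1 KO lines does not pair them (correlations from -0.412 to 0.745 in unstimulated cells and from -0.108 to 0.173 after LPS), and that replicate block changed no call of the 9. Of the other genes named, Ifnb1 (adjusted p = 0.0707), Mx2 (0.0734), Il6ra (0.0664), Csf2rb (0.0878) and Socs4 (0.0651) were not called under it. The line block changed no call of the 9 other than the interactions of Usp18 and Stat2. With the longest transcript as the length, 24 of 36 places in the order of levels were unchanged.

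Signs changed as follows, in values whose tests did not pass. For Tyk2 between unstimulated genotypes the log2 fold change was -0.00081 with relative log expression, -0.021 with upper-quartile normalization, -0.00067 with DESeq2 and -0.0085 in the single fit. Upper-quartile normalization gave -0.0044 for Socs1 there, 0.0023 for Jak1 after LPS, -0.13 for Ifnar2 with LPS in WT, -0.092 for Ifnar1 and -0.14 for Ifnar2 with LPS in ACAT1 KO cells, and 0.0017 for the interaction of Tyk2. Without 1 library the unstimulated genotype difference ranged from -0.044 to 0.040 for Tyk2, from -0.083 to 0.19 for Socs1 and from -0.62 to 0.16 for Socs3. After LPS it ranged from -0.055 to 0.018 for Jak1 and from -0.12 to 0.011 for Tyk2. The LPS response of Ifnar2 ranged from -0.038 to 0.18 in WT and from -0.021 to 0.026 in ACAT1 KO cells. Without a library or a line, interactions ranged from -0.21 to 0.057 for Ifnar2, from -0.013 to 0.069 for Jak1, from -0.16 to 0.034 for Tyk2 and from -0.058 to 0.78 for Socs3. The cause of these shifts was not tested.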
